A study of Mus musculus with 3 samples.

Results

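The genes described here are 10 genes of the endosomal and lysosomal compartment in which antigen-presenting cells cut proteins into peptides: the cathepsins Ctss, Ctsl, Ctsb, Ctsd, Ctsz, Ctsh and Ctsc, the asparaginyl endopeptidase gene Lgmn, the thiol reductase gene Ifi30 and the cystatin gene Cst3. They were chosen by name, and all 10 were found by symbol among the 34289 features listed in each of the 3 libraries. The libraries held ear epidermis cells of male mice, of the outbred Cd1 stock, enriched for Langerhans cells (LCs), the antigen-presenting cells that reside in the epidermis. The untreated library came from control mice given only Nair, a depilatory cream. The croton oil library came from mice treated with actone/croton oil/ olive oil (spelled as labelled), where croton oil is an irritant plant oil, and the microneedle library from mice given multiple microneedle punches. Ears were taken 48 hours after the start of treatment. Trypsin loosened the epidermis, the dissociated cells were freed of dead ones by magnetic separation, and a magnetic kit then enriched the LCs. The number of animals behind each library is not stated, and each group is 1 library, so no difference between groups can be tested. The intervals below are 95%: exact Poisson for levels, exact binomial for shares, and a normal approximation on the log ratio of the counts for ratios. They cover counting error only and leave out the spread between animals. Those of levels and ratios also leave out the spread between cells, so they are too narrow for genes that vary from cell to cell.

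Proteins taken up by an antigen-presenting cell, and the invariant chain (Cd74) that blocks the groove of class II molecules, are degraded stepwise by endosomal proteases before a peptide can be loaded. Endopeptidases such as cathepsin S, cathepsin L, cathepsin B, cathepsin D and legumain cut within chains, the exopeptidases cathepsin Z, cathepsin H and cathepsin C trim from the ends, the reductase encoded by Ifi30 opens disulfide bonds, and cystatin C, the product of Cst3, is a secreted inhibitor of cysteine cathepsins. Cathepsin S is known as the main enzyme for the last steps of invariant chain removal in dendritic cells and B cells, and cathepsin L takes that place in cortical thymic epithelium.

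Expression was deposited as raw counts of UMIs (unique molecular identifiers, each marking the 3' end of 1 captured transcript). The libraries held 9876, 8241 and 6945 cell barcodes with 127666928, 119360952 and 117178809 UMIs (untreated, croton oil and microneedle, the order used throughout). Cells with at least 500 genes and at most 10% mitochondrial UMIs that were not marked as doublets were kept, and LCs were the kept cells with at least 2% of their UMIs from Cd74, H2-Aa, H2-Ab1 and H2-Eb1 and at least 2 UMIs of Epcam. This gate took 8651, 5922 and 5295 cells, or 95.5%, 77.7% and 81.7% of those kept, with a median of 11527, 12576.5 and 17342 UMIs per cell. All 8 LC markers, among them Cd207 and Epcam, stood at 20 CPM (counts divided by the summed count of the class, scaled to 1000000) or more in the gated cells of every library. Markers of other cell types were also found in the gated cells, and their summed levels differed between libraries: the 10 keratinocyte markers summed to 237, 194 and 49.1 CPM, the 10 monocyte and macrophage markers to 435, 332 and 277 CPM, the 8 neutrophil markers to 162, 70.6 and 102 CPM and the 8 T cell markers to 5.52, 73.2 and 20.7 CPM. The 6 NK or innate lymphoid markers summed to 220.1, 923 and 599 CPM, nearly all from Il7r at 217, 911 and 591 CPM, while the defining genes Ncr1 and Eomes had 0 or 1 UMI in each library. The libraries stood in the same order for the T cell and NK or innate lymphoid sums as for Ctss, Ctsz and Ifi30. The part of these cell types in the levels below was not tested. In all, 132, 210 and 86 cells lay near the class II threshold, at 1.5 to 2.5% of UMIs, and 109, 396 and 77 cells held 1 or 2 Epcam UMIs. Between 13 and 32 barcodes were shared by any pair of libraries. Clustering of the kept cells, run without the 10 genes and the pathway genes named below, gave 5 LC-like clusters, of which a different one held most LCs of each library, and neutrophil-like, keratinocyte-like, macrophage-like and T cell-like clusters. A further, mixed cluster of 1, 87 and 14 cells held all 8 LC and 7 of the 8 T cell markers (median 21847 UMIs). Without the 45, 90 and 17 gated cells that lay in clusters of another name, the T cell markers of the gated LCs summed to 4.74, 7.98 and 11.8 CPM. Croton oil was then no longer the highest in that sum, but it still was in the NK or innate lymphoid sum, at 220.4, 928 and 600 CPM. After the same removal, the log2 differences of croton oil over untreated LCs, defined below, were 1.57 for Ctsz and 0.98 for Ifi30. The part of other cell types in them was not tested.

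Promoters of 8 of the 10 genes were found in the RefSeq promoter table (GRCm38.p6, 250 bases before to 50 bases after each start); Ctsb and Ctsh had no entry. They were searched on both strands for CACGTG, the core bound by TFEB and related factors that drive lysosomal genes. The 10-base palindrome built on that core, an exact form of the CLEAR element, was searched for as well. So was the repeat bound by interferon regulatory factors, a pair of GAAA runs spaced by 2 bases. CACGTG lay in the promoters of 4 of these 8 genes, Ctsd, Ctsl, Lgmn and Ifi30, against 7.15% of the 32851 promoters and 8.09% of the 27025 genes in the table. The stretches below show it in capitals. They are given 5′ to 3′ on the gene's strand, which is the minus strand for all 4, with GRCm39 positions from an exact match of the RefSeq sequence. Distances are from the RefSeq start of the table, which can lie inside the annotated gene span: all stretches but that of Ifi30 and the farther one of Ctsd lie within those spans, and that of Lgmn lies well inside.
Ctsd, chr7:141941645-141941674, motif starting 98 bases before the start: tcgcccgcgtctCACGTGacccgttgaggg
Ctsd, chr7:141941792-141941814, 245 bases before: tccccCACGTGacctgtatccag
Ctsl, chr13:64518553-64518582, 236 bases before: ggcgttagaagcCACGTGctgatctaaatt
Lgmn, chr12:102405383-102405412, 49 bases before: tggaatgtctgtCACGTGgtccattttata
Ifi30, chr8:71219486-71219515, 196 bases before: atccaaaaacttCACGTGaccagacatgct
The exact palindrome, which contains CACGTG, was in none of the 8 and in 0.326% of all promoters. Near matches to it were not searched for, so this does not show that the CLEAR element is absent. The GAAA repeat lay in the promoter of Ctss alone among the 8, and in 3.44% of all promoters. It is in capitals in this stretch of the plus strand, 21 bases before the start.
Ctss, chr3:95434066-95434095: gtctttaaatGAAACCGAAAtgaaagttca
A match describes these letters and is not a measurement of binding.

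In LCs, the 10 genes ranged widely in level (plot of levels by cell class and library). UMIs of the 10 genes made up 0.802%, 1.30% and 0.647% of all LC UMIs, and Cst3 alone gave 76.7%, 79.8% and 68.1% of these. After Cst3, Ctss had the most UMIs of the group in each library, while Ctsd and Ctsl had the fewest. These are counts of captured 3' ends, which do not scale with transcript length, but the capture of each gene was not known.

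**Figure D1:**
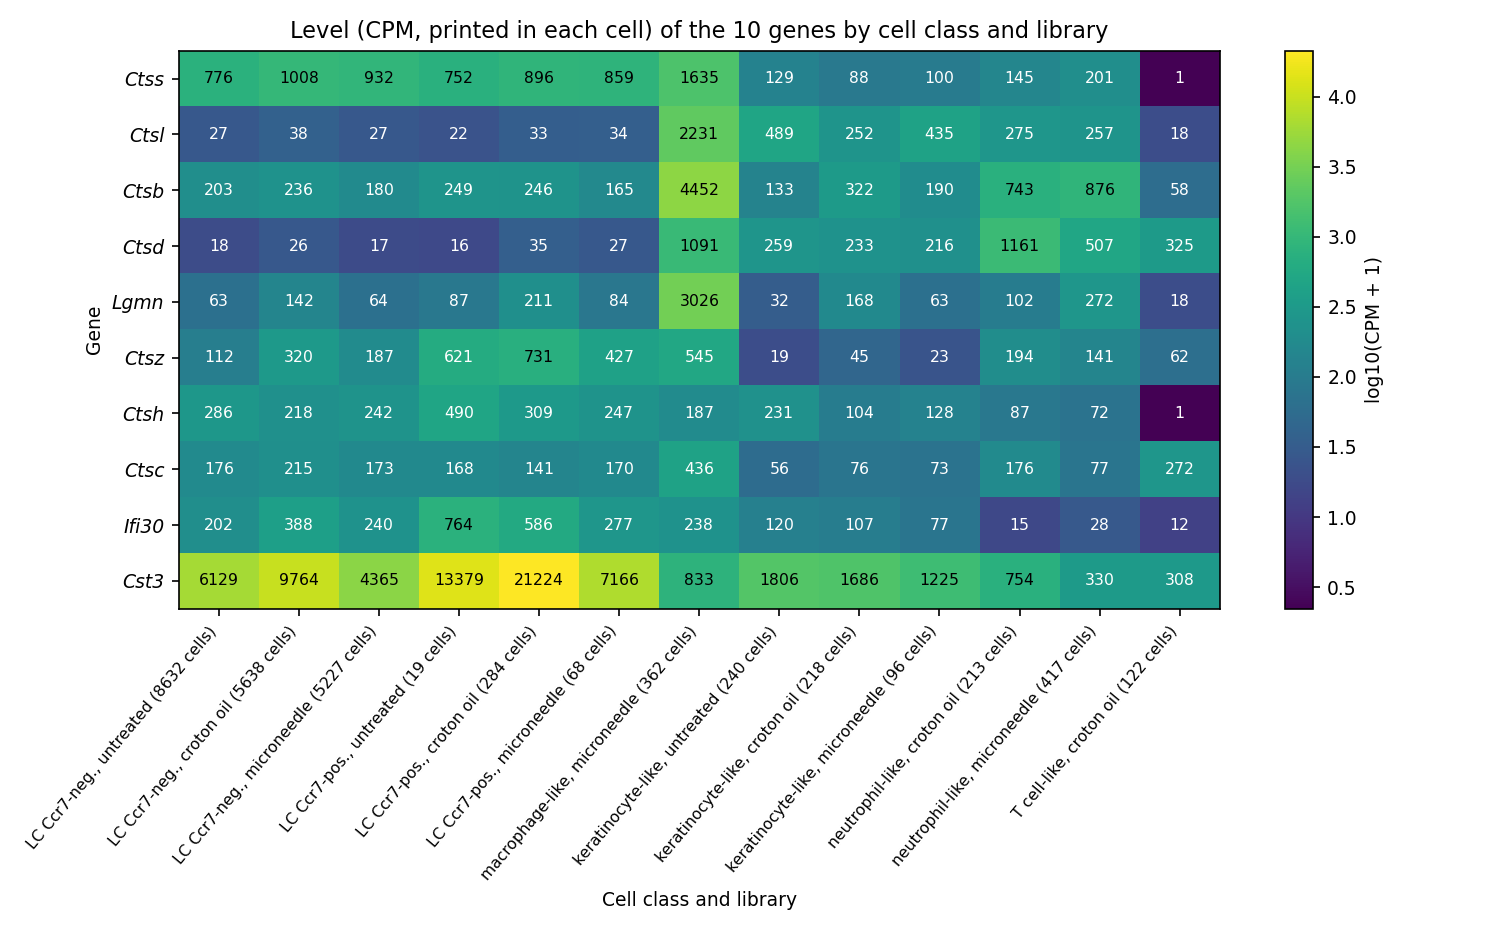
Level (CPM, printed in each field) of the 10 genes, from top to bottom, in each cell class and library, from left to right with the number of cells, coloured by log10(CPM + 1); classes with fewer than 19 cells in a library are left out. Ctsl, Ctsb and Lgmn stand highest in macrophage-like cells, Ctsd in neutrophil-like and macrophage-like cells, and Cst3 in Ccr7-positive LCs.

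Among the endopeptidases, Ctss stood at 776 CPM (771 to 781), 1002 CPM (995 to 1008) and 931 CPM (925 to 937) in LCs, so that both treated libraries were above the untreated one. Ctsb was at 203, 237 and 179.5 CPM, highest in the croton oil library and lowest in the microneedle library. Ctsl, at 27.1 CPM (26.1 to 28.1), 37.6 CPM (36.3 to 38.9) and 27.2 CPM (26.2 to 28.2), and Ctsd, at 17.8 CPM (17.0 to 18.6), 26.7 CPM (25.6 to 27.8) and 17.4 CPM (16.6 to 18.3), were low in LCs of every library. The intervals of the untreated and microneedle libraries overlapped for both genes, and the croton oil library stood above them. Lgmn, whose product cuts after asparagine and can start the breakdown of the invariant chain, was at 63.3 CPM (61.8 to 64.8), 146 CPM (143 to 148) and 64.3 CPM (62.7 to 65.9). Only the croton oil library stood apart for this gene, since the intervals of the other two overlapped.

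Among the exopeptidases, Ctsz was at 114 CPM (112 to 116), 342 CPM (338 to 346) and 191 CPM (188 to 193), the widest spread between libraries in the group. Ctsh, an aminopeptidase, was at 286, 223 and 242 CPM and was lower in both treated libraries, which held for no other gene of the 10 beyond counting error. Ctsc, a dipeptidyl peptidase that activates granule proteases, was at 176 CPM (174 to 179), 211 CPM (208 to 214) and 173 CPM (171 to 176). Ifi30 was at 203 CPM (201 to 206), 398 CPM (394 to 403) and 241 CPM (238 to 244), and Cst3 at 6151 CPM (6136 to 6166), 10385 CPM (10363 to 10407) and 4409 CPM (4396 to 4422). Cst3 was thus highest in the croton oil library and lowest in the microneedle library, with the untreated library between them.

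Changes were taken as log2((CPM + 5)/(CPM + 5)) of summed counts, for genes at 20 CPM or more on either side, and a gene was called at 2-fold or more. Croton oil and microneedle were each compared with the same untreated library. Ctsd in untreated and microneedle LCs, Ctsz in untreated keratinocyte-like cells and Ifi30 in croton oil neutrophil-like cells were under 20 CPM. Where the other sum was above it they were compared through that side alone, and there their direction adds no support to a count. In croton oil LCs, 2 of the 10 genes were called, both higher, where 11.0% of the 6831 genes compared were called in either direction and 5.48% were called higher. These were Ctsz, with a log2 difference of 1.55 (ratio 3.01, 2.95 to 3.08), and Lgmn, with 1.14 (ratio 2.30, 2.23 to 2.37). Ifi30 lay just under the threshold at 0.95, followed by Cst3 at 0.76, Ctsd at 0.48, Ctsl at 0.41, Ctss at 0.37, Ctsc at 0.25 and Ctsb at 0.22. Ctsh, at -0.36, was the gene of the 10 with a lower level. The median over the 10 genes was 0.44, beside -0.03 over all genes compared, and 9 of 10 genes were above 0 where 47.9% of all genes compared were. Without Ctsd the median was 0.41 and 8 of 9 genes were above 0. With TMM scaling, which moved the median of all genes from -0.03 to 0.08, Ifi30 was called as well, at 1.06, and the share of called genes that were higher was 62.4% instead of 49.8%. In Ccr7-negative LCs alone Ctsz and Lgmn were again the 2 genes called, where 10.8% of all genes were.

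**Figure D2:**
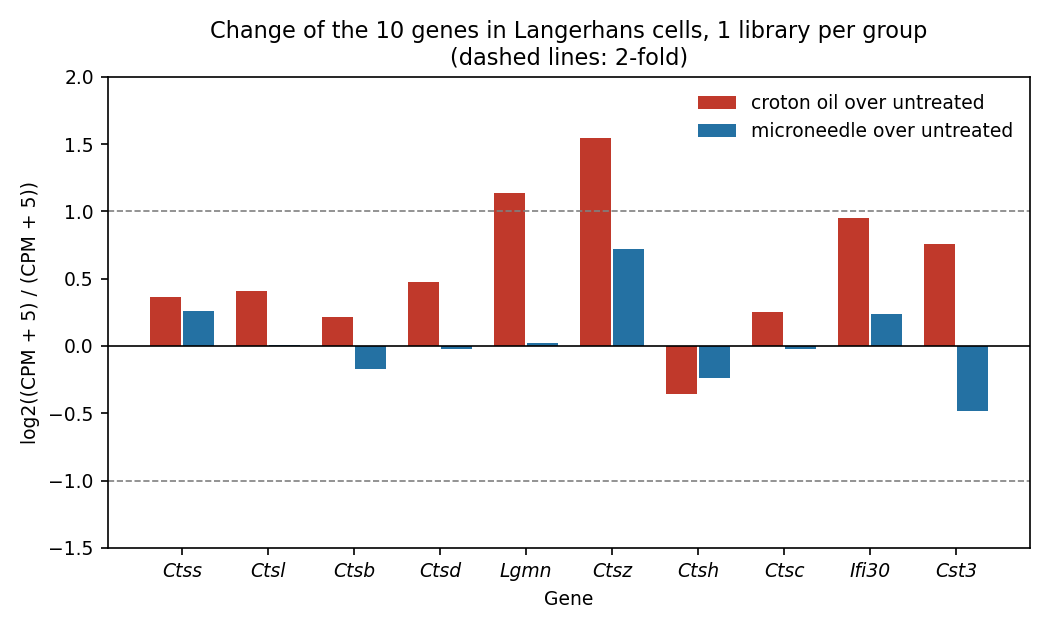
Log2 difference (y axis) of each gene (x axis) in LCs as bars, croton oil (red) and microneedle (blue) over the shared untreated library, 1 library per group and no error between animals; dashed lines mark 2-fold. Ctsz and Lgmn pass the line in croton oil at 1.55 and 1.14, and no gene passes it in microneedle, where Ctsd rests on levels under 20 CPM.

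In microneedle LCs, none of the 9 genes compared was called, where 5.63% of 6697 genes were. Ctsd was below 20 CPM in both libraries and was not compared. Ctsz had the largest difference of the group at 0.72 (ratio 1.68, 1.64 to 1.71), and Cst3 the lowest value at -0.48 (ratio 0.717, 0.714 to 0.720). Ctss and Ifi30 were at 0.26 and 0.24, Ctsh and Ctsb at -0.24 and -0.17, and Lgmn, Ctsl and Ctsc between -0.03 and 0.02. The median over the 9 genes was 0.00, beside 0.03 over all genes compared. Of Ccr7-negative LCs alone, again none was called, where 5.65% of all genes were.

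Set against each other, the treated libraries differed by 2-fold or more in 2 of 10 genes, Cst3 and Lgmn, where 2.67% of 6627 genes did. Cst3 was higher in croton oil by 1.24 (ratio 2.36, 2.35 to 2.36), and Lgmn by 1.12 (ratio 2.26, 2.20 to 2.33). Ctsz was higher by 0.83 and Ifi30 by 0.71, below the threshold. The remaining 6 genes lay between -0.12 (Ctsh) and 0.50 (Ctsd). With TMM scaling the median of all genes went from -0.06 to 0.07, the share of called genes that were higher in croton oil went from 61.0% to 73.8%, and Ctsh was at 0.01.

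The cell-to-cell spread was compared after each LC was thinned to 3000 UMIs, which left out 102, 32 and 59 shallower cells. Cst3 had a median of 18, 26 and 12 UMIs per cell, with the middle 90% of cells between 8 and 33, 6 and 75, and 3 and 29 UMIs. The croton oil library was the widest: the variance of Cst3 over its mean was 3.60, 17.8 and 5.77 (plot of cumulative shares). At the low end of the distribution the croton oil cells lay below the untreated ones, and at the high end above them. Cells with a Ctsz UMI made up 27.9% (26.9 to 28.9), 58.3% (57.0 to 59.5) and 38.2% (36.8 to 39.5) after thinning (70.3%, 94.0% and 87.1% before it), and cells with an Ifi30 UMI 41.8%, 65.3% and 47.0% (81.4%, 95.2% and 90.8% before it). Cells with an Lgmn UMI made up 14.0%, 29.98% and 15.2% (38.8%, 65.7% and 50.3% before it), and those with a Ctss UMI 88.8%, 93.4% and 91.6% (99.7%, 99.9% and 99.96% before it). The order of the libraries in these shares was the order of their CPM. The LC genes Cd207, Cd74, H2-Aa, H2-Ab1 and H2-Eb1 served as a reference for LC RNA in cells of other classes. They stood at 15.1 to 16.8%, 6.32 to 8.51% and 12.0 to 18.5% of their LC level in keratinocyte-like cells, at 1.69 to 4.50% and 3.03 to 4.52% in neutrophil-like cells of croton oil and microneedle, at 0.371 to 0.833% in T cell-like cells of croton oil and at 2.23 to 3.90% in macrophage-like cells of microneedle. The share thus differed between classes of a library, and whether this RNA was free or came with LC material in the same droplet was not tested.

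**Figure D3:**
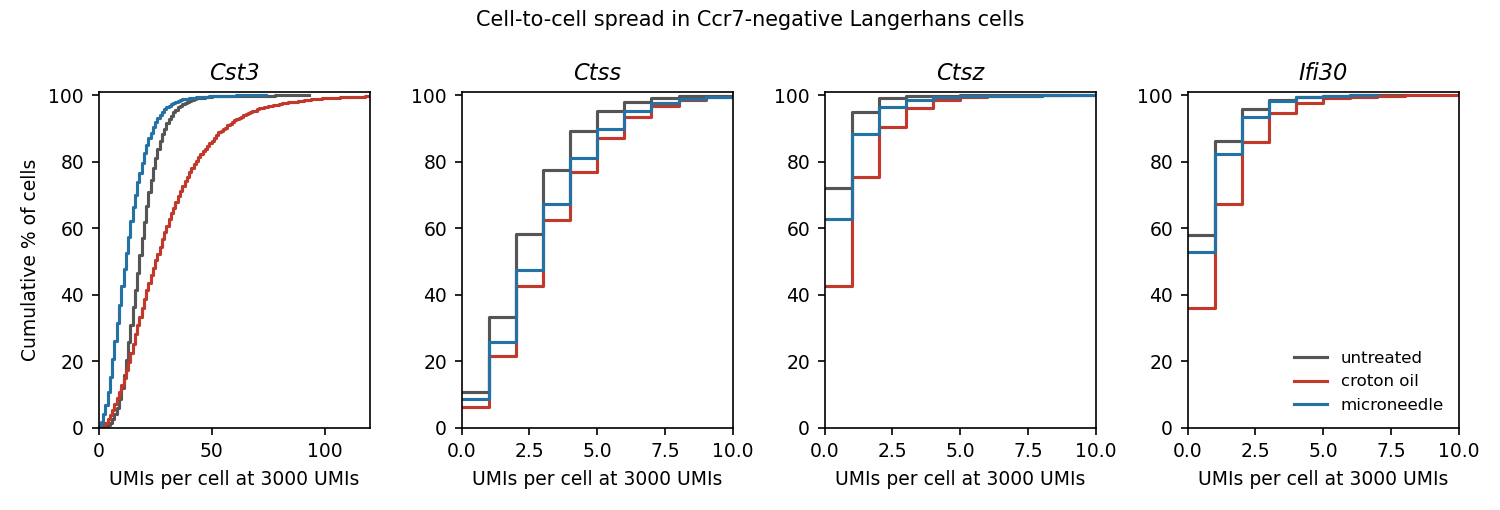
Cumulative share of Ccr7-negative LCs (y axis, %) by UMIs per cell of Cst3, Ctss, Ctsz and Ifi30 (x axis) after thinning to 3000 UMIs, 1 line per library. The croton oil line of Cst3 crosses that of the untreated library and reaches furthest to the right, with a 95th percentile of 68 UMIs beside 33 in the untreated and 28.6 in the microneedle library.

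LCs that leave the epidermis for the lymph node switch on the chemokine receptor gene Ccr7, and LCs with at least 1 Ccr7 UMI were set against the rest of the same library. The gate held 19, 284 and 68 such cells. The LC-like clusters held 23, 949 and 224, of which 17, 271 and 66 passed the gate, so that most were left out in the treated libraries, and levels are given for both definitions (plot of Ccr7-positive against Ccr7-negative cells). The median depth was 14674, 14441.5 and 20438 UMIs in Ccr7-positive and 11513, 12524 and 17312 in Ccr7-negative LCs. The 8 T cell markers summed to 6.24, 253 and 100.2 CPM in the Ccr7-positive LCs of the gate, and to 5.52, 62.8 and 19.4 CPM in the Ccr7-negative ones. Without the gated cells of other clusters these sums were 7.16, 3.68 and 24.6 CPM and 4.73, 8.21 and 11.6 CPM, and the log2 differences of Ctsz and Cst3 given next were 1.22 and 1.18 in croton oil and 1.22 and 0.76 in microneedle.

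The summed levels of Cst3 and Ctsz were higher in Ccr7-positive LCs of every library. Cst3 was at 13379 CPM (12982 to 13785), 21224 CPM (21089 to 21361) and 7166 CPM (7031 to 7303) in Ccr7-positive LCs and at 6129, 9764 and 4365 CPM in Ccr7-negative ones. Ctsz was at 621 CPM (537 to 713), 731 CPM (706 to 757) and 427 CPM (394 to 461) against 112, 320.0 and 187 CPM. In croton oil both were called, Ctsz at 1.18 (ratio 2.28, 2.20 to 2.37) and Cst3 at 1.12 (ratio 2.17, 2.16 to 2.19), where 3.82% of 6536 genes were called. With TMM scaling, which moved the median of all genes from -0.06 to -0.19 and the share of called genes that were higher from 75.6% to 56.8%, Cst3 was at 0.98 and was no longer called. In microneedle LCs Ctsz was called, at 1.17 (ratio 2.28, 2.11 to 2.47), where 2.97% of 6790 genes were, and Cst3 was at 0.71. TMM scaling moved the median of all genes there from -0.01 to -0.13, and Ctsz was at 1.05. With a class II threshold of 4%, Ctsz was at 0.68 and not called. Among the 19 untreated Ccr7-positive cells, 3 of 9 genes were called, Ctsz at 2.42, Ifi30 at 1.90 and Cst3 at 1.13, where 18.9% of 6972 genes were.

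The other genes differed in direction between Ccr7-positive and Ccr7-negative LCs. In croton oil, Ifi30, Lgmn and Ctsh were higher in Ccr7-positive LCs by 0.59, 0.56 and 0.50 (log2), below the threshold. Ctsc was lower, at 141 against 215 CPM, a log2 difference of -0.59. Ctss, the gene most tied to class II peptide loading, was at 896 CPM (869 to 925) in Ccr7-positive and 1008 CPM (1000.5 to 1015) in Ccr7-negative LCs, slightly lower, and Ctsb at 246 CPM (232 to 262) and 236 CPM (233 to 239.5) with overlapping intervals. The median over the 10 genes was 0.42 in croton oil and 0.24 in microneedle, beside -0.06 and -0.01 over all genes compared. The croton oil median was 0.27 with class II at 4% of UMIs or more, and the microneedle median ranged from 0.13 with TMM scaling to 0.59 with Ccr7 at 2 UMIs or more. In microneedle Ctsd was at 20 CPM or more in the Ccr7-positive LCs alone, and the median of the other 9 genes was 0.20.

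With the LC-like clusters in place of the gate, Cst3, Ctsz and Lgmn were higher in the Ccr7-positive cells of the treated libraries than under the gate. Cst3 was then at 16048, 26102 and 11092 CPM in Ccr7-positive cells, Ctsz at 616, 1072 and 638, and Lgmn at 99.4, 250.2 and 151. Ctsc was lower in the Ccr7-positive cells of the treated libraries, at 123 against 213 and 118 against 173 CPM, and so was Ctss, at 802 against 1003 and 792 against 930.1 CPM. Under this definition 3 genes were called in microneedle instead of 1, Ctsz, Cst3 and Lgmn, but 15.7% of 6910 genes were called instead of 2.97%, and the median of all genes was -0.11. In croton oil 16.9% of 6685 genes were called under it instead of 3.82%.

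**Figure D4:**
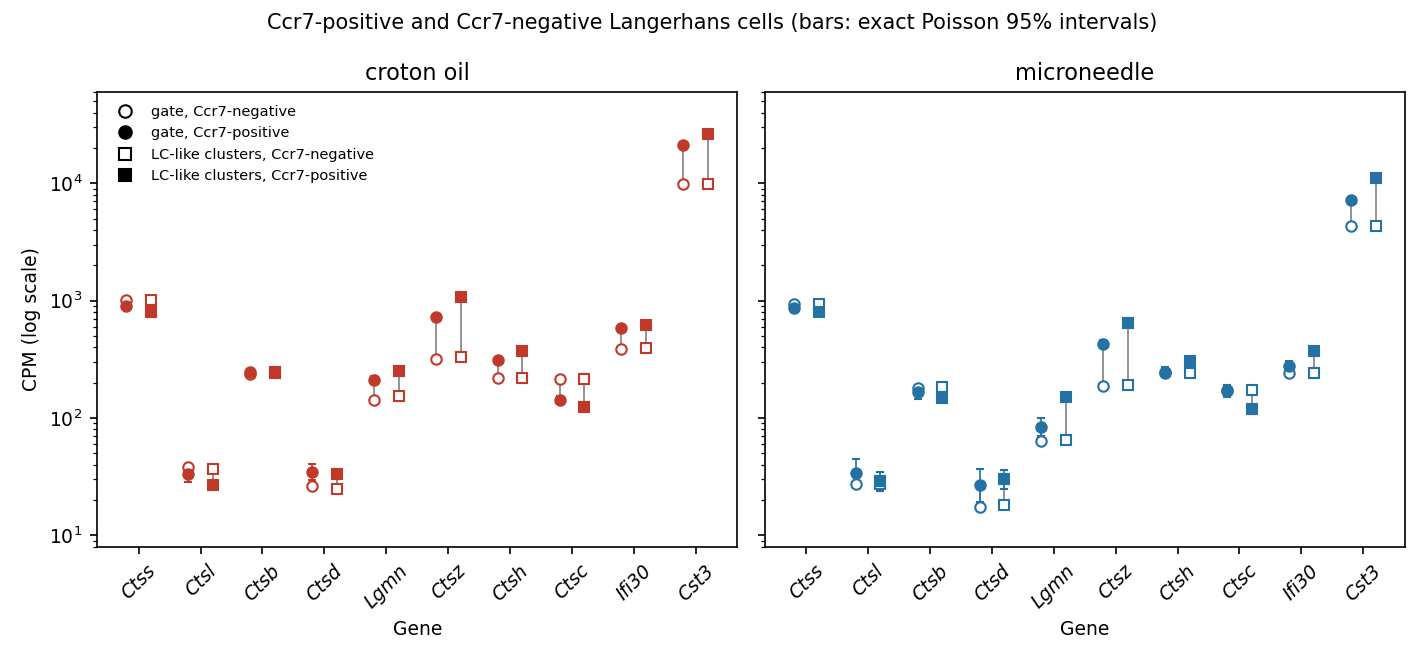
Level (CPM, log axis) of each gene in Ccr7-negative (open) and Ccr7-positive (filled) LCs of the croton oil (left) and microneedle (right) libraries, by the gate (circles) and by LC-like clusters (squares), with exact Poisson 95% intervals. Cst3 and Ctsz are higher in Ccr7-positive cells in all 4 pairs, and Ctss is slightly lower in all 4.

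Among the LC-like clusters, the gated cells of the cluster led by Ccr7 and Fscn1 had the highest Cst3 in the croton oil library. Its 146 cells, of which 122 were Ccr7-positive, held Cst3 at 33292, Ctsz at 1099, Ifi30 at 819.9, Lgmn at 303 and Ctsc at 116 CPM. In the cluster that held most croton oil LCs, with 4770 cells, these were at 9807, 314, 384, 135 and 199 CPM. A further cluster drew on all 3 libraries, with 860, 731 and 756 gated cells, and class II genes led it. Its Ctsb was at 289, 398 and 288 CPM and its Ctss at 935, 1231 and 1254. In the largest cluster of each library, Ctsb was at 196, 213 and 163 CPM and Ctss at 767, 985 and 905. Both genes were thus higher in the shared cluster in each library.

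Macrophages are professional phagocytes with a large lysosomal protease content, and macrophage-like cells were frequent enough to describe in the microneedle library alone (362 cells, median 6091 UMIs, against 3 and 7 cells in the untreated and croton oil libraries). Before any removal, that cluster held 9 of 10 monocyte and macrophage markers and all 5 melanocyte markers, with the melanocyte gene Dct among its leading genes. Cells of that cluster with more melanocyte than macrophage marker UMIs were left out, and 362 of its 365 microneedle cells stayed in the class. The part of melanocyte RNA in the levels below was not tested. Of the 10 genes, 6 were lower and 1 higher by 2-fold or more in LCs than in macrophage-like cells, where 36.5% of 7357 genes were called. Ctsl was at 2231 CPM (2173 to 2290.3) in macrophage-like cells, 82.1 times its LC level, Ctsd at 1091 CPM (1050.1 to 1132), 62.6 times, Lgmn at 3026 CPM (2958 to 3095), 47.1 times, and Ctsb at 4452 CPM (4369.6 to 4535), 24.8 times. Ctsz at 545 and Ctsc at 436 CPM were 2.86 and 2.52 times the LC level. Ctss, Ctsh and Ifi30 differed by less than 2-fold, with Ifi30 at 238 CPM (219 to 258) against 241 CPM (238 to 244) in LCs. Cst3 was the exception, at 833 CPM (797 to 869) in macrophage-like cells, where LCs had 5.30 times as much.

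Keratinocytes build the epidermis, and 240, 218 and 96 keratinocyte-like cells were found (median 24878.5, 50698 and 26737.5 UMIs). LCs differed by 2-fold or more in 6, 8 and 7 of the 10 genes, where 39.0%, 42.7% and 38.6% of all genes compared did. Ctsd and Ctsl were the genes that were lower in LCs in each library. Keratinocyte-like cells held Ctsl at 489 CPM (471 to 507), 252 CPM (243 to 262) and 435 CPM (413 to 458), and Ctsd at 259 CPM (246 to 272), 233 CPM (224 to 242) and 216 CPM (201 to 232). Ctsl was thus lowest in the croton oil library, the one in which it was highest in LCs. Ctss, Ctsz, Ctsc and Cst3 were higher in LCs in each library, by 1.20 to 3.43 on the log2 scale. In keratinocyte-like cells Ctss was at 16.6%, 8.81% and 10.7% of its LC level and Ctsz at 16.4%, 13.2% and 11.9%. Both lay within the range of the LC reference genes in the untreated library, above it in croton oil and below it in microneedle. The source of this RNA was not tested.

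Lgmn and Ctsb were higher, and Ctsh lower, in keratinocyte-like cells of the treated libraries. Lgmn was at 32.3 CPM (27.9 to 37.2), 168 CPM (161 to 176) and 63.4 CPM (55.2 to 72.5), Ctsb at 133 CPM (124 to 143), 322 CPM (311 to 333) and 190.4 CPM (176 to 206), and Ctsh at 231 CPM (219 to 244), 104 CPM (97.9 to 110.2) and 128 CPM (116 to 141). Croton oil over untreated gave log2 differences of 2.22, 1.24 and -1.12 for these 3 genes. Ctsz was called as well, at 1.08, but its untreated level was under 20 CPM and within the range of the LC reference genes. The source of that RNA was not tested. In all, 4 of 10 genes were called, 3 of 9 without Ctsz, where 27.2% of 7609 genes were. For microneedle none of the 10 was called, where 13.2% of 7574 genes were, and Lgmn was nearest the threshold at 0.87. The keratinocyte-like cells of the croton oil library were about as many as the untreated ones but deeper, and the mix of keratinocyte layers was not matched between libraries.

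Neutrophil-like cells, 213 in the croton oil and 417 in the microneedle library with 1 untreated, were shallow (median 3046 and 3316 UMIs). Ctsd was their leading cathepsin of the group by UMIs in croton oil, at 1161 CPM (1087 to 1239.7), and Ctsb in microneedle, at 876 CPM (834 to 919). LCs differed from neutrophil-like cells by 2-fold or more in 7 and 9 of the 10 genes, where 60.3% and 63.5% of all genes compared were called. In both libraries LCs were lower in Ctsd, Ctsl and Ctsb and higher in Cst3, Ifi30, Ctss and Ctsh, and in microneedle also lower in Lgmn and higher in Ctsc. Between the libraries, neutrophil-like cells of croton oil had 2.29 times the Ctsd, 2.29 times the Ctsc and 2.28 times the Cst3, and 0.374 times the Lgmn, of those of microneedle, where 20.8% of 5494 genes were called. The neutrophil-like cluster also held 5 of the 10 monocyte and macrophage markers. Macrophage-like cells numbered 7 in croton oil and 362 in microneedle, where they held Lgmn at 3026 and Ctsb at 4452 CPM. Their part in the levels of neutrophil-like cells was not tested. Ifi30, at 15.4 CPM in croton oil, was at 3.87% of its LC level, within the range of the LC reference genes in neutrophil-like cells there. In the 122 T cell-like cells of the croton oil library, Ctsd was at 325 CPM (287 to 366) and Ctsc at 272 CPM (238 to 310.4), while Ctss and Ctsh each had 1 UMI in all.

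The order of the classes therefore differed between the genes, and over the 12 library and class sums of at least 50 cells their profiles fell into different company. The Pearson r of log2(CPM + 5) was 0.92 between Ctsb and Lgmn, 0.88 between Ctss and Ctsh and between Ifi30 and Cst3, and -0.84 between Ctsd and Cst3. These sums share libraries and are not independent, so the values are descriptions. Among 10674 genes, the profile nearest to Ctsb was that of Psap, which encodes the precursor of the saposins, at 0.98, and next Atp6v1b2, a subunit of the proton pump that acidifies lysosomes, at 0.97. The nearest to Ctss was Tbc1d9 at 0.99, to Ctsl Met at 0.99, to Ctsd Glrx at 0.98, to Cst3 Pkib at 0.97, to Ctsz St3gal1 at 0.96, to Ifi30 Cxcl16 at 0.96, to Ctsc Serinc1 at 0.94, to Lgmn Apobec1 at 0.93 and to Ctsh Pla2g4a at 0.92.

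The other genes of the pathway were followed in 8 lists (plot of the lists). Beside their counts stand the shares of all genes called, 11.0% (5.48% higher) in croton oil and 5.63% (3.87% higher) in microneedle. Of the 14 other cystatins and protease inhibitors found, 5 were compared in croton oil LCs and 3 in microneedle LCs, and 4 and 1 were called higher. Serpinb9, Serpinb6b and Cst7 were under 20 CPM in untreated LCs and were compared only because the treated level was above it, so these counts are no support for the list. The called genes were Cstb, which encodes the cytosolic cathepsin inhibitor stefin B, from 85.2 to 325 CPM (log2 difference 1.87), Serpinb9, an inhibitor of granzyme B, at 11.2, 45.1 and 33.1 CPM (1.63 and 1.23), Serpinb6b at 1.42 and Cst7, which encodes cystatin F, at 1.34. Cst7 is also expressed by T cells, whose 8 markers summed to 5.52 and 73.2 CPM in the untreated and croton oil LCs (4.74 and 7.98 CPM without the gated cells of other clusters), and their part in its level was not tested. Of the other cathepsins and lysosomal peptidases, Ctsa alone was called of 5 compared, from 60.8 to 171 CPM (1.42), and the aspartic protease gene Napsa was at 462 and 795 CPM (0.78).

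Of 26 lysosomal hydrolases and membrane proteins compared, 1 was called higher and 2 lower in croton oil LCs, a share near that of all genes, with medians of -0.05 and -0.13 in croton oil and microneedle. The higher gene was Cd63, a tetraspanin of late endosomes, at 305, 1519 and 703 CPM (2.30 and 1.19), and the lower ones Arsb, at -1.63, and Gla, at -1.02, which encode arylsulfatase B and alpha-galactosidase A. Of 18 acidification genes, the proton pump subunits Atp6v0e and Atp6v0c were called higher in croton oil, at 1.05 and 1.01, and the list medians were 0.06 and -0.05. In Ccr7-negative croton oil LCs alone 1 of the 18 was called, where 10.8% of all genes were. The 7 genes compared for sorting of lysosomal enzymes had medians of 0.52 and 0.31. Among them Igf2r, which encodes the cation-independent mannose 6-phosphate receptor, was higher at 1.30 and Gga2 at 1.12 in croton oil. Sort1, which encodes sortilin, was lower in both treated libraries at -1.19 and -1.20. Of these 7 genes, 1 was called higher and 1 lower in Ccr7-negative croton oil LCs alone, where 10.8% of all genes were called. None of the 9 regulator genes compared was called in either treatment, with medians of -0.24 and -0.09. Tfeb, whose product binds the CACGTG element, was at 64.1 CPM in untreated and 31.2 CPM in croton oil LCs (-0.93). The 5 class II loading genes compared had medians of 0.17 and 0.08. H2-DMb2 was at 130 and 265 CPM in untreated and croton oil LCs (1.00), and H2-Oa was lower in microneedle at -1.08. Of 12 class I processing genes, Psmb10, an immunoproteasome subunit, was called in croton oil at 1.28, and the list medians were 0.43 and 0.37. Igf2r, Gga2 and Psmb10, like the 3 inhibitor genes, were under 20 CPM in untreated LCs, and H2-Oa was under it in microneedle LCs.

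**Figure D5:**
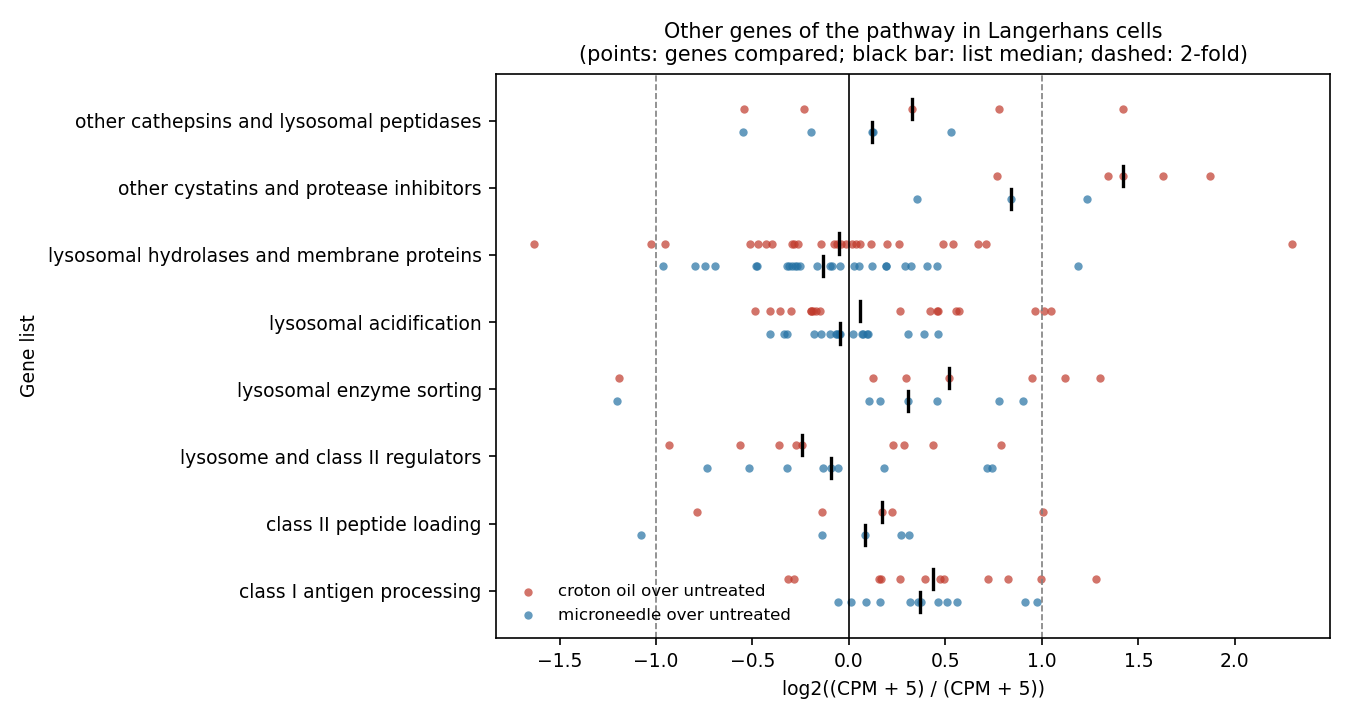
Log2 difference in LCs of each compared gene of the 8 pathway lists (points), croton oil (red) and microneedle (blue) over untreated, with list medians as black bars and 2-fold as dashed lines. Cd63 lies furthest to the right, at 2.30 in croton oil, and most genes of each list but the inhibitors lie between the dashed lines; 3 of the 5 inhibitors shown for croton oil entered through their croton oil level.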

How the data were processed

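The authors deposited raw UMI counts per gene and cell, without normalization. Per the file headers Cell Ranger 8.0.0 made them, and the submitters' processing notes name Cell Ranger 8.0 and GRCm39. The libraries were made with the Chromium Next GEM Single Cell 3' v3.1 kit, per the labels. The 10 genes, the pathway lists and the markers were chosen with earlier results of these data known.

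Cells were filtered as stated in the text, and the highest doublet scores were removed at 0.8% per 1000 cells (773, 532 and 376 cells), because the automatic threshold marked only 1, 0 and 0. Kept cells were clustered jointly in scanpy 1.11.5 on counts scaled to 10000 UMIs per cell and log-transformed, with 2000 variable genes that left out the 10 genes and the pathway lists, 30 principal components, 15 neighbours and Leiden resolution 0.5 (leidenalg 0.10.2, Python 3.11.15). Clusters were named from markers, and the naming rule was chosen with the clusters in view, as was the removal of cells with more melanocyte than macrophage UMIs from the macrophage-like class. Cell classes other than LCs lay outside the LC gate.

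UMIs were summed per library and class and divided by the total of the class (CPM). With 1 library per group no test was run, and library and treatment cannot be told apart. A gene was called at 2-fold or more on the log2((CPM + 5)/(CPM + 5)) scale, with at least 20 CPM on either side. That scale understates differences of low genes. All 10 genes are named. Of the 119 genes in the 8 pathway lists, those called in LCs are named, and Napsa and Tfeb were chosen after their values were seen. The 2 nearest profiles of each of the 10 genes were found by Pearson r. Alternatives were 17 planned and 1 added after seeing the data, with edgeR 4.0.16 for TMM. On simulated counts the procedure recovered 199 of 200 changed genes for croton oil (6346 genes) and 200 of 200 for microneedle (6361 genes). It called 0 unchanged genes. Each group was 1 library, so whether calls hold over the spread between animals or libraries was not tested.

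The 10 genes lie on GRCm39 at Ctss chr3:95433963-95463717, Ctsb chr14:63358384-63383372, Ctsd chr7:141929646-141941775, Ctsl chr13:64507151-64518704, Ctsz chr2:174267304-174280832, Ctsh chr9:89936205-89958148, Ctsc chr7:87927092-87960096, Lgmn chr12:102359122-102414682, Ifi30 chr8:71215403-71219334 and Cst3 chr2:148713635-148717887. Ctsb, Ctsl, Ctsz and Lgmn overlap a gene of the opposite strand, and Ctsd overlaps Gm49369 on its own strand, which had 0.0371 CPM in untreated LCs. The counting of strand is not given in the sources used here.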

Additional observations from a re-analysis of the deposited data

Results flagged for a closer look

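Several of the 10 genes pointed one way in LCs and the other way in keratinocyte-like cells of the same treated library, with the counting intervals of both ratios clear of 1. In croton oil over untreated, keratinocyte-like cells against LCs gave log2 differences of -0.15 and 0.48 for Ctsd, -0.94 and 0.41 for Ctsl, -0.17 and 0.95 for Ifi30, and -0.10 and 0.76 for Cst3. In microneedle over untreated they gave 0.50 and -0.17 for Ctsb, and -0.61 and 0.24 for Ifi30. None of these 12 values reached 2-fold. Ctss also pointed opposite ways, at -0.52 and 0.37 in croton oil and -0.35 and 0.26 in microneedle. Its share of the LC level in untreated keratinocyte-like cells lay within the range of the LC reference genes there. With Ctss, 5 of 10 genes in croton oil and 3 of 9 in microneedle pointed opposite ways, where 20.5% of the 5732 and 20.5% of the 5677 genes compared in both cell types did. The croton oil count includes Ctsd, which was compared in LCs through its croton oil level alone and adds no support to it. Ctss is in both counts despite the limit just given. Cst3 in keratinocyte-like cells stood at 29.4%, 16.2% and 27.8% of its LC level and Ifi30 at 59.2%, 26.8% and 32.0%, beside 15.1 to 16.8%, 6.32 to 8.51% and 12.0 to 18.5% for the reference genes (untreated, croton oil and microneedle). The part of LC RNA in their direction was not tested. Each group was 1 library and both treatments share the untreated one, so the difference between the cell types was not tested.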

How the results depend on the processing

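No paired analysis was possible because each group was 1 library. The counts of called genes for croton oil over untreated LCs (2 or 3 over the alternatives), microneedle over untreated LCs (0), croton oil over microneedle LCs (2 or 3) and LCs over keratinocyte-like cells stayed within 1.5 times the stated value under every alternative run. The count for Ccr7-positive over Ccr7-negative LCs of croton oil was 1 in place of 2 with TMM scaling. For microneedle it was 0 in place of 1 with class II at 4% of UMIs or more, and 3 with the LC-like clusters in place of the gate and with Ccr7 at 2 UMIs or more. Of all genes, 4.19% were called under the first of these settings, against 3.82%, and 3.55%, 15.7% and 13.1% under the others, against 2.97%. The cause was not tested. Over the alternatives, the croton oil difference of Ctsz lay between 1.47 and 1.92, of Lgmn between 1.08 and 1.33, of Ifi30 between 0.91 and 1.06 and of Cst3 between 0.67 and 0.99, and the microneedle difference of Cst3 between -0.53 and -0.42. For microneedle, Ctsd, Ctsl, Ctsc and Lgmn took either sign near 0. The Ccr7-positive untreated LCs were only 19 cells, which widens their counting intervals. The alternative that left the 4 class II genes of the gate out of the total was chosen after seeing the data.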

Other observations

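Croton oil LCs also differed within the library by C1q, an opsonin of the complement system. The 5637 LCs with at least 2 C1qa UMIs had Cst3 at 10059 CPM and Ctsz at 333 CPM, and the 285 others had 16835 and 526 CPM, log2 differences of -0.74 and -0.65. Ctsl and Ctss were higher in the C1qa-positive cells, by 0.56 and 0.50. None of these reached 2-fold, and 1.99% of all genes compared did. In the untreated and microneedle libraries Ctsz was instead higher in the C1qa-positive cells, by 0.25 and 0.35, and Cst3 differed by 0.08 and -0.13. C1qa is among the genes that lead the cluster holding most croton oil LCs, and the C1qa-low cells were not matched to it in depth or Ccr7.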
